A study of Rattus norvegicus with 4 samples.

Results

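The connexin genes, which encode the subunits of gap junctions, were taken by name, as genes starting GJA, GJB, GJC, GJD or GJE in the study's lists of plasma membrane channels for whole choroid plexus, sorted epithelial cells and proximal tubule. Described here are 8 connexins, of 105 channel genes in these lists and of 32883 gene IDs in all, namely GJB2 (ENSRNOG00000008855), GJA1 (ENSRNOG00000000805), GJA4 (ENSRNOG00000014357), GJC1 (ENSRNOG00000048838), GJB6 (ENSRNOG00000022116), GJD3 (ENSRNOG00000051691), GJA5 (ENSRNOG00000017484) and GJB1 (ENSRNOG00000003746). The lists hold genes at or above 0.5 TPM, the number of transcripts of a gene per 1000000 transcripts in the library, so each connexin reaches that level in at least 1 of the 3 libraries behind them by construction. The female library had no such list, and its values were not used in the choice. Other connexin genes were not analysed here.

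A connexin spans the plasma membrane, assembles with other connexins into a hemichannel, and docks with a hemichannel of the neighbouring cell, so that ions and small metabolites pass directly between cells. The Greek letter classes (GJA for alpha, GJB for beta, GJC for gamma, GJD for delta) follow sequence, and the Cx names follow protein mass. GJA1 (Cx43) is the most widespread connexin, GJA4 (Cx37) and GJA5 (Cx40) are known from arterial endothelium, and GJB1 (Cx32) from liver and myelinating glia.

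The 4 libraries came from Sprague Dawley rats aged 9 weeks, anaesthetised with xylazine and ketamine. Whole choroid plexus from 5 male and from 5 female rats was pooled by sex. Dissociated choroid plexus cells of 10 male rats were sorted by FACS with an antibody against NKCC1, the cotransporter encoded by SLC12A2, and tubules were picked by hand from collagenase- and pronase-digested kidney of 5 male rats. By the wording of the methods these were the males that gave the male choroid plexus, so both pools appear to share animals. With 1 pooled library per condition, no difference below has a replicate check, no spread between animals can be given, and no p-value is printed.

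RSEM expected counts, which estimate the reads per gene, summed to between 23873318 and 28324976 per library. In the proximal tubule library 70.7% of them lay on the 13 mitochondrially encoded genes, against 4.32 to 5.34% in the other libraries. The proximal tubule levels below are therefore TPM after removal of these genes and rescaling of the rest to 1000000, and in the comparison with the male choroid plexus this was done in both libraries. The study instead left these genes out of its reference before that comparison, so its values need not be the same. TPM is corrected for transcript length, so levels of different genes can be compared. Intervals are exact 95% Poisson intervals on the counts and cover counting error only.

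The labels were checked against marker genes. All 12 epithelial markers had counts in the whole choroid plexus and in the sorted cells. The sorted library also held markers of other cells. The 10 endothelial markers summed to 298 TPM there against 209 TPM in the male tissue, the 9 mural and fibroblast markers to 1544 against 1001 TPM, and the 9 immune markers to 4631 against 852 TPM, with none of these 28 genes at 0. The 4 astroglial markers summed to 2.54 against 7.58 TPM, with SLC1A2 and KCNJ10 at 0. In the proximal tubule library all 8 proximal tubule markers had counts, from 21.6 TPM for SLC5A2 to 7371 TPM for SLC7A13. The 4 markers of other nephron segments that were looked up had counts too, from 2.12 TPM for SLC12A3 to 89.3 TPM for KCNJ1. Among them SLC12A1 of the thick ascending limb had 17.2 TPM.

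GJB2, which encodes Cx26, was the highest of the connexins in all 4 libraries. It had 12.2 TPM in the male choroid plexus (11.3 to 13.2 TPM, 643 counts), 10.8 TPM in the female choroid plexus (9.89 to 11.7 TPM, 556 counts), 13.4 TPM in the sorted cells (12.4 to 14.4 TPM, 741 counts) and 13.4 TPM in the proximal tubule (12.0 to 15.1 TPM, 300 counts). The 4 levels printed here lay close together, the female tissue being the lowest. Only the proximal tubule value is on the scale without mitochondrially encoded genes. With these genes kept it was 3.75 TPM, the lowest of the 4. Among the channel genes at or above 0.5 TPM, GJB2 placed 20 of 87 in the male tissue, 22 of 79 in the female tissue, 14 of 85 in the sorted cells and 5 of 26 in the proximal tubule. It exceeded the next connexin 1.94-fold in the male tissue (1.71 to 2.19), 1.74-fold in the female tissue (1.53 to 1.98), 2.09-fold in the sorted cells (1.80 to 2.45) and 5.18-fold in the proximal tubule (3.63 to 7.62).

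GJA1 and GJA4 followed in the whole tissue. GJA1 had 6.32 TPM in the male choroid plexus (442 counts), 6.20 TPM in the female choroid plexus (426 counts), 4.63 TPM in the sorted cells (342 counts) and 1.61 TPM in the proximal tubule (48 counts). GJA4 had 5.80 TPM in the male choroid plexus (187 counts), 5.34 TPM in the female choroid plexus (169 counts) and 6.38 TPM in the sorted cells (216 counts), and was listed at 0 in the proximal tubule. GJA1 and GJA4 did not differ beyond counting error in the male tissue (ratio 1.09, 0.916 to 1.3) or in the female tissue (1.16, 0.969 to 1.39). In the sorted cells the order was the reverse, with GJA4 and GJC1 above GJA1.

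GJC1, encoding Cx45, had 1.92 TPM in the male choroid plexus (69 counts), 1.67 TPM in the female choroid plexus (59 counts) and 5.79 TPM in the sorted cells (219 counts). The sorted library thus stood apart from both whole-tissue libraries, and GJC1 was listed at 0 in the proximal tubule. GJB6, encoding Cx30, a common partner of Cx26 in mixed channels, had 0.960 TPM in the male choroid plexus (34 counts), 2.13 TPM in the female choroid plexus (74 counts) and 0.750 TPM in the sorted cells (28 counts). The female value was the highest of the 3, and the proximal tubule was again listed at 0. GJB2 and GJB6 are direct neighbours on chromosome 15 of the RefSeq annotation of the newer rat assembly GRCr8, and in the male tissue GJB2 was the highest and GJB6 the fifth of the 8 genes.

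**Figure D1:**
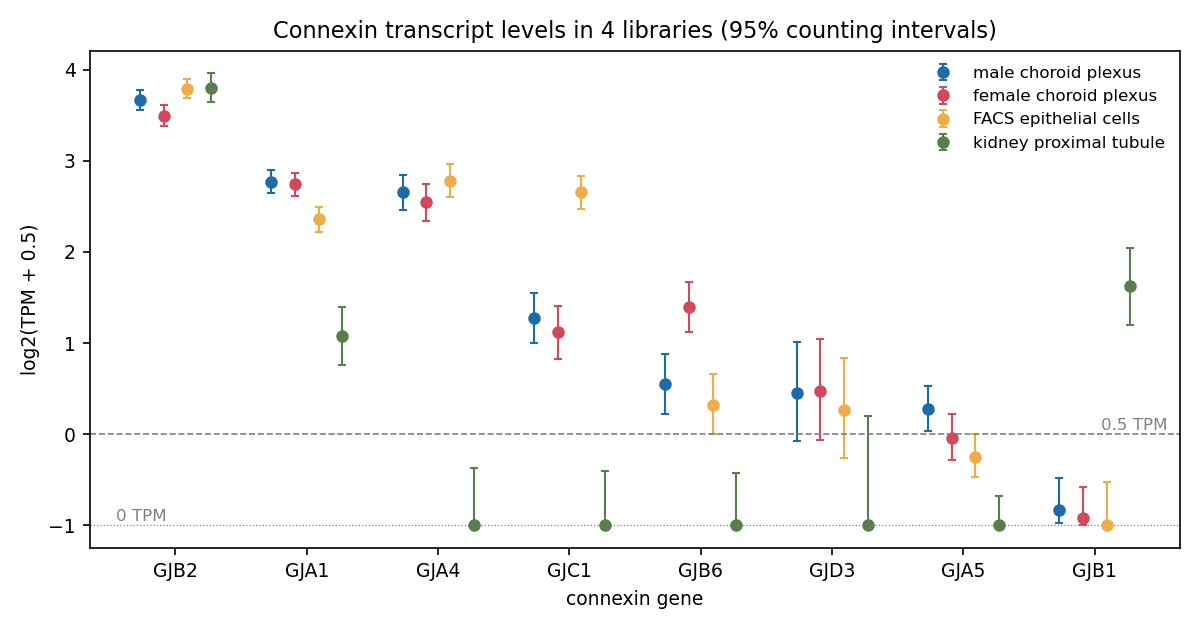
Level of each of the 8 connexins (x axis) as log2(TPM + 0.5) (y axis) in the male choroid plexus, female choroid plexus, FACS epithelial cells and proximal tubule, with 95% Poisson intervals as bars. GJB2 is highest in each library, GJC1 is set apart in the sorted cells, and 5 connexins lie at 0 in the proximal tubule. Only the proximal tubule is on the scale without mitochondrially encoded genes.

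GJD3 and GJA5 lay near or under 0.5 TPM in the choroid plexus libraries. GJD3, encoding Cx30.2, had 0.870, 0.890 and 0.700 TPM in the male tissue, the female tissue and the sorted cells, from 12, 12 and 10 counts. These values differed by less than their counting intervals, as did those of GJD3 and its neighbours GJB6 and GJA5 in the male tissue. GJA5 had 0.710 TPM (49 counts) in the male tissue, 0.470 TPM (32 counts) in the female tissue and 0.340 TPM (25 counts) in the sorted cells, so it reached 0.5 TPM in the male tissue alone. It therefore entered the set through the male list, which favours low ratios for it against the male tissue.

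GJB1, encoding Cx32, had 2.58 TPM from 34 counts in the proximal tubule, against 2 counts in the male tissue, 1 count in the female tissue and 0 in the sorted cells. The library in which GJB1 reached 0.5 TPM had 0 counts for GJA4, GJC1, GJB6, GJD3 and GJA5. Zeros there were frequent beyond the connexins. Counts were also 0 in the proximal tubule for 74.6% of all genes with a male level between 0.5 and 7 TPM. A link between the connexin zeros and the GJB1 level was not tested.

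Sequences near the start of these genes were at hand for 6 of the 8 connexins, from RefSeq on GRCr8, which is not the build the authors aligned to. Those of GJB2 and GJB1 are shown because GJB2 was the highest connexin in every library and GJB1 reached 0.5 TPM in the proximal tubule alone. Each runs 5′ to 3′ from 250 bases before to 50 bases after the start in the table. Capitals mark matches to GGGCGG or CCGCCC, its reverse complement (the GC box), and a search for TATAAA and TTTATA found no match in either.
GJB2 (GRCr8 chr15:35381904-35382203, minus strand): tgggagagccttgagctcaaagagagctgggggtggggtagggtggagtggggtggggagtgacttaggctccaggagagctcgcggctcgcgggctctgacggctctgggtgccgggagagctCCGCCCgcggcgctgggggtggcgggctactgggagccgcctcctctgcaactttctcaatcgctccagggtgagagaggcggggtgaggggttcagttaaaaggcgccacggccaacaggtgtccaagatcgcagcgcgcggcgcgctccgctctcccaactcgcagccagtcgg
GJB1 (GRCr8 chrX:70541595-70541894, plus strand): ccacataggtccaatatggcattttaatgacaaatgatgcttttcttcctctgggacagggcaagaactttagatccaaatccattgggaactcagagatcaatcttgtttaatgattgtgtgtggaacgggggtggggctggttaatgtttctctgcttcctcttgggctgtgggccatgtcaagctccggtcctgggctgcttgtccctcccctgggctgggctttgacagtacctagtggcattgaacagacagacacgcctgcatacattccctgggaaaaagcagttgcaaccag

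The GJB2 sequence was 68.0% G and C with 25 CG pairs and 1 GC box, and the GJB1 sequence was 49.7% G and C with 3 CG pairs and no GC box. GJA1, which like GJB2 reached 0.5 TPM in all 4 libraries, had 50.3% G and C, 10 CG pairs and no GC box. One listed start of GJB6 had 67.0% G and C, 25 CG pairs and 2 GC boxes, and the other 52.3%, 5 and 1. GJA4 had 65.3% G and C, 19 CG pairs and 1 GC box, and GJA5 had 55.3%, 6 and 2. Whether these letters go with the levels was not tested. Over 33469 sequences of this length the median was 7 CG pairs, 33.1% held a GC box, and 14.2% held TATAAA or its complement. These are descriptions of the letters and not of factor binding.

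Summed over the members, connexin transcripts amounted to 28.9 TPM in the male choroid plexus, 27.5 TPM in the female choroid plexus, 31.95 TPM in the sorted cells and 17.6 TPM in the proximal tubule. This was 0.943%, 1.01%, 1.55% and 3.63% of the TPM of the listed channel genes, whose sum is far lower in the proximal tubule. GJB2 made up 42.4% of the connexin sum in the male tissue, 39.2% in the female tissue, 41.8% in the sorted cells and 76.2% in the proximal tubule. GJC1 moved from 6.65% in the male tissue to 18.1% in the sorted cells, and GJA1 from 21.9% to 14.5%. By class, alpha connexins summed to 12.8 TPM and beta connexins to 13.3 TPM in the male tissue, against 1.61 and 16.0 TPM in the proximal tubule. The sums of the proximal tubule are on the scale without mitochondrially encoded genes, and those of the other libraries are not. Without these genes the connexin sum of the male tissue was 31.5 TPM.

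**Figure D2:**
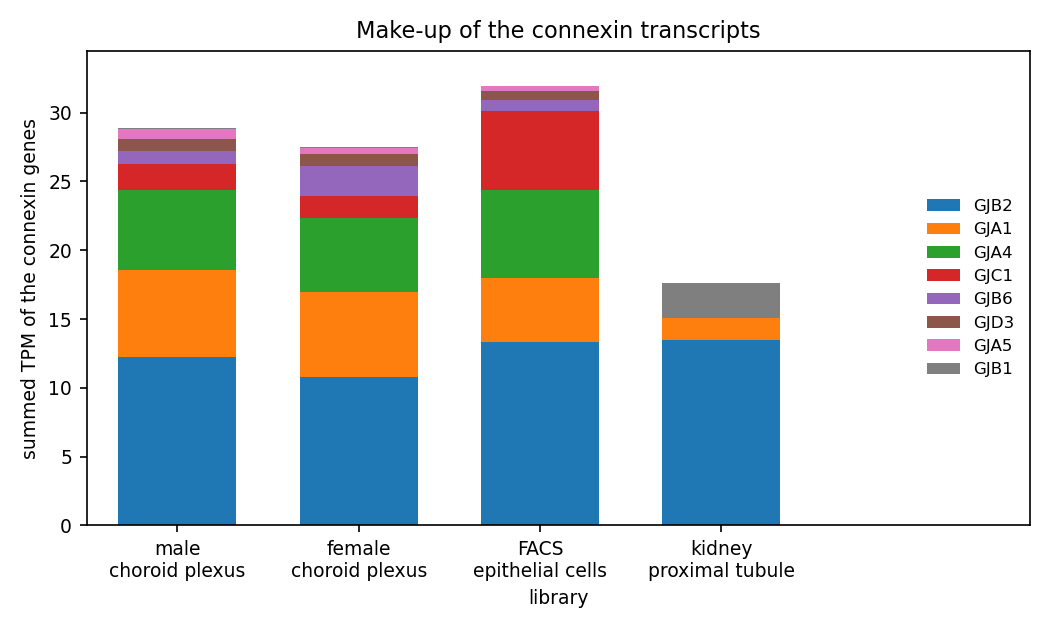
Summed TPM of the 8 connexins (y axis, from 0) in each of the 4 libraries (x axis), with each coloured segment 1 connexin. The sums are 28.9, 27.5, 31.95 and 17.6 TPM from left to right, and the proximal tubule holds 3 segments, for GJB2, GJA1 and GJB1. Only the proximal tubule is on the scale without mitochondrially encoded genes.

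The sorted cells were compared with the whole male choroid plexus to ask which connexin transcripts are held by the captured epithelial fraction. To each TPM 0.5 was added before the log2 ratio was taken, so that changes of genes with low levels come out too small, and a gene was counted as changed at 2-fold or more on this scale. Of the 7 connexins at or above 0.5 TPM in either library, 1 was 2-fold or more higher and 0 were 2-fold or more lower. Among all 14024 such genes, 5.81% were higher and 30.4% lower by this rule. The median log2 ratio was -0.19 for the connexins and -0.64 for all genes. All 7 connexins lay above the latter on this scale, which shrinks the changes of the low ones.

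The connexin counted as higher was GJC1, with a log2 ratio of 1.38 and a TPM ratio of 3.02 (counting interval 2.29 to 4.01), higher than 96.4% of all genes. With the female choroid plexus in place of the male, GJC1 remained 2-fold or more higher.

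GJB2 had a TPM ratio of 1.09 (0.982 to 1.22) and GJA4 of 1.10 (0.900 to 1.35), so neither difference exceeded counting error. GJA1 lay below the whole tissue at 0.733 (0.634 to 0.846), and GJA5 at 0.479 (0.283 to 0.790). Most genes also lay lower in the sorted library. With 0.5 added to each TPM, GJA1 and GJA5 were above the median of all genes, by 0.23 and 0.11 on the log2 scale. For GJA5, at 0.34 against 0.71 TPM, the added 0.5 shrinks the log2 ratio from -1.06 to -0.53, so its place relative to the median is not settled. GJB6 at 0.781 (0.456 to 1.33) and GJD3 at 0.805 (0.311 to 2.03) did not differ beyond counting error.

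The marker genes moved in this comparison too. Of the immune markers 7 of 9 were 2-fold or more higher and 0 lower, with a median log2 ratio of 1.66, and CD74 had 2556 against 345 TPM. Of the 10 endothelial markers none was counted in either direction, with a median of 0.20. The 9 mural and fibroblast markers had 1 higher and 2 lower, with a median of -0.08, and 5 of the 12 epithelial markers were lower, with a median of -0.72. TTR, encoding transthyretin, had 389655 TPM in the sorted cells and 238565 TPM in the male tissue. The part of these cells in the connexin values was not tested, and in bulk RNA fewer cells of a type and less RNA per cell cannot be told apart.

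**Figure D3:**
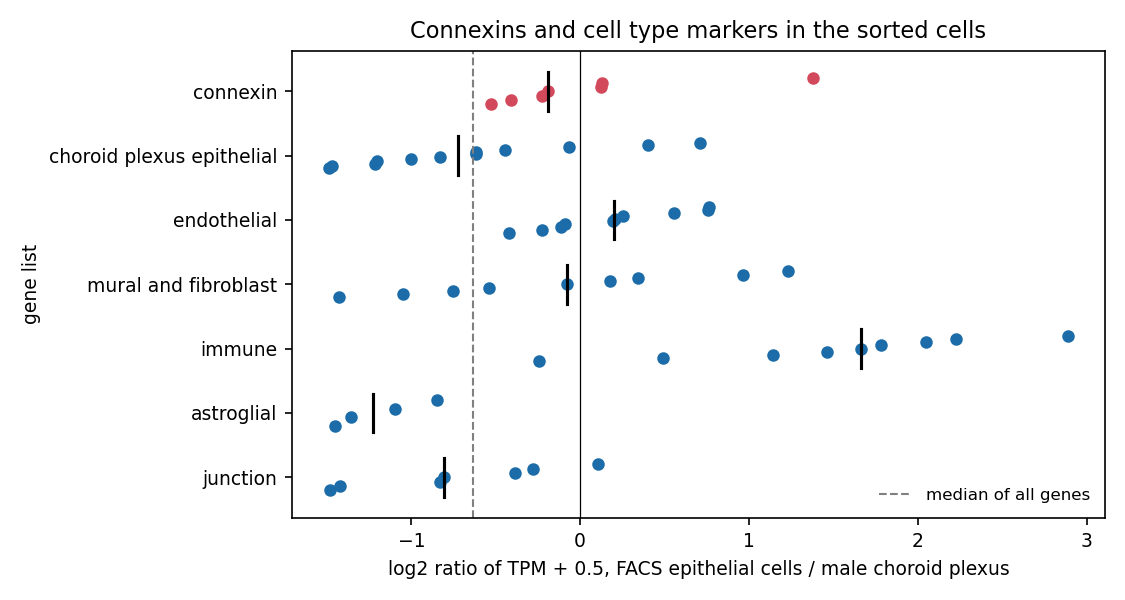
Log2 ratio of TPM + 0.5 between FACS epithelial cells and male choroid plexus (x axis) for the connexins and the lists of marker and junction genes (y axis), 1 point per gene at or above 0.5 TPM in either library. Black ticks are list medians and the dashed line the median of all genes (-0.64), and the immune markers lie furthest right, with a median of 1.66.

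Other junction genes gave a frame for these values. The tight junction genes CLDN2 and CLDN1 had 659 and 66.3 TPM in the sorted cells against 799.6 and 86.9 TPM in the male tissue, and OCLN 42.8 against 76.5 TPM. Of the cadherin and catenin genes, CDH3 had 80.2 against 74.5 TPM, CTNNA1 72.5 against 127 TPM and CTNNB1 63.5 against 178 TPM. CNST, encoding consortin, which binds connexins on their way to the membrane, had 30.0 against 81.5 TPM. Of these 7 genes 0 were 2-fold or more higher and 2, CTNNB1 and CNST, were lower, with a median of -0.81. The junction genes summed to 1424 TPM in the male tissue, far above the connexin sum.

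The pannexins, which form single-membrane channels and are unrelated to connexins in sequence, lay below GJB2, GJA1 and GJA4 in the choroid plexus libraries. PANX2 had 3.12 TPM in the male tissue, 3.05 TPM in the female tissue, 3.46 TPM in the sorted cells and 2.01 TPM in the proximal tubule. PANX1 had 0.290, 0.360 and 0.510 TPM in the first 3 and was listed at 0 in the last.

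Female and male choroid plexus were compared to see whether the connexins differ between the sexes. Of the 7 connexins at or above 0.5 TPM in either, 0 were 2-fold or more higher and 0 lower, where 0.815% and 1.61% of all 13869 genes were. The 4 connexins with the most counts, GJB2, GJA1, GJA4 and GJC1, had TPM ratios of female to male of 0.881 (0.785 to 0.988), 0.981 (0.857 to 1.12), 0.921 (0.743 to 1.14) and 0.870 (0.604 to 1.25). The median log2 ratio of all genes was -0.17, and relative to it GJB2 was at -0.01.

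GJB6 was set apart from the others in this comparison. It had a TPM ratio of 2.22 (1.46 to 3.44) and a log2 ratio of 0.85 with the pseudocount, higher than 98.97% of all genes. It narrowly passed the 2-fold line with a pseudocount of 0.1 (log2 ratio 1.07), without the 10 highest genes (1.02), on depth-scaled counts (CPM, 1.01) and relative to the median of all genes (1.02). It did not pass with a pseudocount of 1 (0.68) or without mitochondrially encoded genes (0.84). The difference rests on 74 against 34 counts in 1 pool each. The 4 astroglial markers, from cells known for Cx30, summed to 6.88 TPM in the female and 7.58 TPM in the male tissue, and their part in the GJB6 value was not tested. Its place among the connexins in the female tissue was the fourth, where it did not exceed GJC1 beyond counting error (ratio 1.28, 0.894 to 1.83). GJA5 at 0.662 (0.410 to 1.05) did not differ beyond counting error, although it crossed the cut-off, which left 6 connexins at or above 0.5 TPM in the female and 7 in the male tissue. GJA5 was a member through the male list alone, and a connexin at 0.5 TPM in the female tissue alone could not be a member. The numbers 6 and 7 thus partly follow the choice of genes.

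The proximal tubule was compared with the male choroid plexus as another epithelium that moves large volumes of fluid. With the mitochondrially encoded genes removed from both libraries, GJB2 had 13.4 TPM in the proximal tubule and 13.3 TPM in the male choroid plexus. The TPM ratio was 1.01 (0.876 to 1.16), so its level did not differ beyond counting error. With these genes kept, GJB2 had 3.75 TPM in the proximal tubule and a log2 ratio of -1.58, and on CPM, which is not corrected for length, the log2 ratio was 0.75, so the likeness of the levels depends on the scale. GJA1 was lower, with 1.61 against 6.90 TPM on the same scale, a ratio of 0.234 (0.170 to 0.316). GJB1 was higher, by a ratio of 39.4 (10.1 to 339) from 34 against 2 counts. It entered the set through the proximal tubule list alone, so the direction of its ratio was fixed by the choice of genes.

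Of the 8 connexins at or above 0.5 TPM in either library, 1 (GJB1, chosen through the proximal tubule list) was 2-fold or more higher and 6 lower. Among all 14227 such genes 12.7% were higher and 76.9% lower, and the median log2 ratio was -1.58 for the connexins and -2.86 for all genes. Relative to the median of all genes 6 connexins were 2-fold or more higher and 0 lower. The quartiles of all genes, -4.68 and -1.12, also lay more than 2-fold from it. The share of all genes passing this centred rule was not computed. GJB6, GJD3 and GJA5 are among the 6 connexins, although they had 0 counts in the proximal tubule. Their ratios, like that of GJC1, are set by the pseudocount and the male level, so no direction relative to the median can be read for them. GJA1, with 48 counts, was lower than in the male tissue but above the median of all genes. With a pseudocount of 1, 4 connexins were 2-fold or more lower, as GJD3 (-0.96) and GJA5 (-0.83) no longer passed, and on CPM 5 were, without GJD3 (-0.92).

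Apart from GJA1, the lower connexins were those listed at 0 in the proximal tubule, for which no fold is given. Such zeros were common in that library. Of the genes at 0.5 to 7 TPM in the male choroid plexus, 74.6% had 0 counts in the proximal tubule. At or above 0.5 TPM in the male tissue, 58.3% of all genes, 73 of 87 channel genes and 5 of 7 connexins had 0 counts there. CTNNB1, which encodes the widely expressed beta-catenin and had 9301 counts in the male tissue, was also at 0. A count of 3 would correspond to 0.102 TPM for GJA5 and 0.527 TPM for GJD3, the extremes among the listed zeros.

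**Figure D4:**
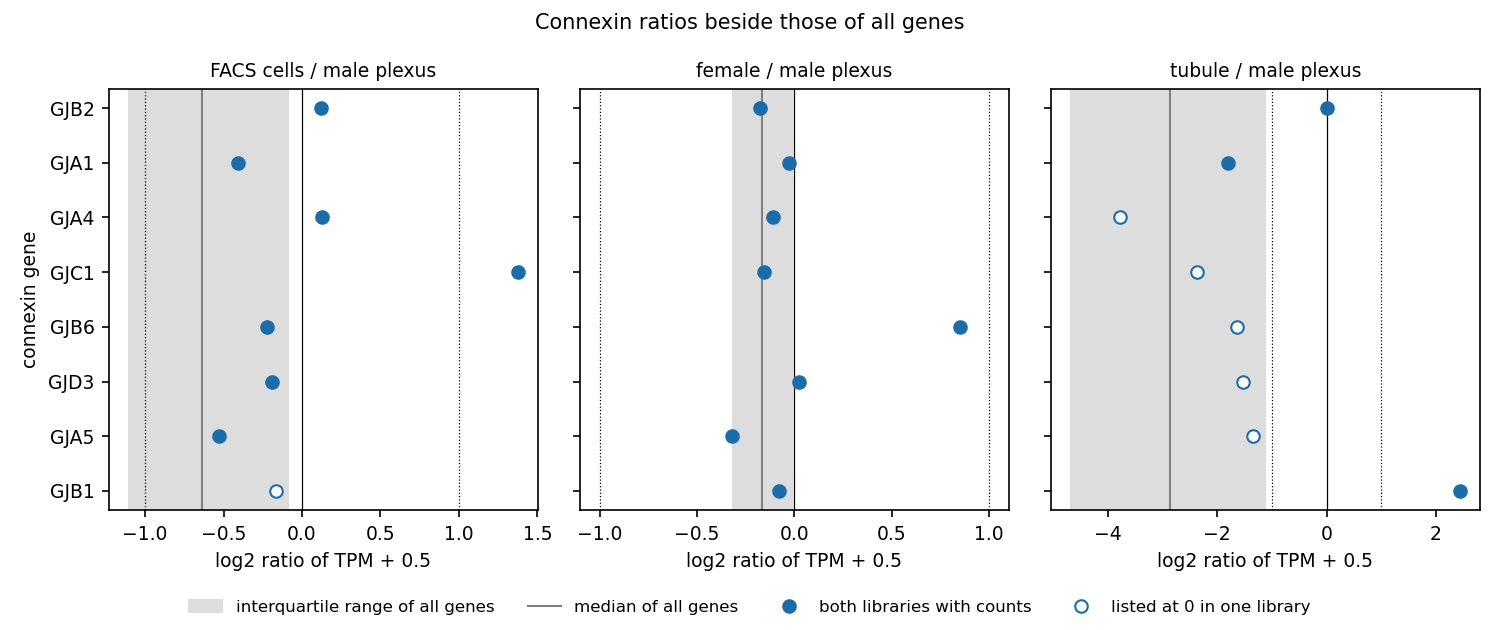
Log2 ratio of TPM + 0.5 (x axis, its range differing between panels) of each connexin (y axis) for sorted cells, female tissue and proximal tubule against the male choroid plexus, the last without mitochondrially encoded genes in either library. Grey bands span the interquartile range of all genes, grey lines their medians (-0.64, -0.17 and -2.86), dotted lines mark 2-fold, and open points are genes listed at 0 in 1 library.

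Profiles over the 4 libraries were compared with those of 104 other channel genes, as the Euclidean distance between log2(TPM + 0.5) values, each centred on its own mean. Nearest to GJB2 were HCN3 (0.60), CHRNB1 (0.62) and PANX2 (0.63), nearest to GJA1 were P2RX3 (0.15), GJD3 (0.21) and PIEZO2 (0.26), nearest to GJA4 were KCNJ11 (0.20), AQP1 (0.22) and CLCN2 (0.29), and nearest to GJC1 were PIEZO1 (0.44), KCNN4 (0.50) and TRPM2 (0.62). HCN3 had 0.17 TPM in the male tissue, 0.09 in the female tissue, 0.17 in the sorted cells and 0.646 in the proximal tubule. At such low levels the added 0.5 flattens a profile. The genes near GJC1 all had their highest level in the sorted cells, with 5.20 TPM for PIEZO1, 5.93 TPM for KCNN4 and 6.06 TPM for TRPM2. With 4 libraries these distances describe the profiles and test nothing.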

How the data were processed

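The authors sequenced paired-end 150 base reads, mapped them to the rat assembly Rnor_6.0 with the annotation of Ensembl release 103 by STAR 2.7.2a, and quantified genes with RSEM 1.3.3. The submitters' processing notes name the same tools. The deposited values used here are the RSEM expected counts, which are estimates and need not be whole, the deposited TPM and the deposited effective length in bases. The deposited FPKM was not used. Trimming with Trimmomatic is described for the study's comparison of species, which includes the male choroid plexus, and is not stated for the deposited files. The strand setting is not given in the sources used here, so reads of overlapping or antisense genes could not be told apart. Names come from the study's lists, which pair IDs with names (2441 were used), and their TPM columns were not used. Some genes of these lists, 1 connexin among them, are not reported here and are in no marker list, sum or count of connexins or channels.

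Levels, sums and ratios were then derived from the deposited values in Python 3.11.15 (scipy 1.17.1, pandas 2.3.3 and numpy 2.4.6), and matplotlib 3.10.9 made the plots. A gene was counted as detected at 0.5 TPM, the study's cut-off. Ratios used a pseudocount of 0.5 TPM and were called at 2-fold, and intervals of ratios are exact conditional (Clopper-Pearson) 95% intervals on the counts. Genes named are all members, the pannexins, fixed lists of junction and marker genes, and the 3 nearest profiles. The members and lists were chosen with earlier results of these data known. The intervals and ratios were tested on simulated data. No annotation of Rnor_6.0 was used, so no coordinates on that build are given. Cut-offs, pseudocounts and scalings were varied, as the closing section gives.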

Additional observations from a re-analysis of the deposited data

How the results depend on the processing

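With no replicates, no replicate could be left out, and no paired analysis was possible because each condition has 1 library. At cut-offs of 1 and 5 TPM, 4 and 3 connexins were detected in the male choroid plexus and in the sorted cells, and at 5 TPM 3 in the female tissue and 1 in the proximal tubule. Without the 10 highest genes the connexin sums were 44.8 TPM in the male tissue, 45.8 TPM in the female tissue, 65.9 TPM in the sorted cells and 23.0 TPM in the proximal tubule. Without mitochondrially encoded genes they were 31.5, 29.3 and 34.0 TPM in the first 3, and with these genes kept 4.92 TPM in the proximal tubule. The share held by GJB2 cannot change with such rescaling. Between sorted cells and whole tissue, 1 connexin (GJB6) was 2-fold or more lower with the female in place of the male tissue. Between female and male, 1 (GJB6) was higher with a pseudocount of 0.1, without the 10 highest genes, centred, or on CPM. With a pseudocount of 1 or without mitochondrially encoded genes 0 were higher. Between proximal tubule and male tissue, centring gave 6 higher and 0 lower, and the share of all genes passing the centred rule was not computed. The centred log2 ratios were 1.05 for GJA1, 0.48 for GJC1, 1.23 for GJB6, 1.32 for GJD3 and 1.51 for GJA5. GJC1, GJB6, GJD3 and GJA5 had 0 counts in the proximal tubule. Their values are set by the pseudocount and the male level, so no direction can be read from this turn. GJA1, with 48 counts, lay below the male tissue but above the median of all genes that was subtracted. Many genes with 0 counts in the proximal tubule enter that median. No other called ratio changed sign. Counts of 2 to 12 limit GJB1 and GJD3, and differences there of the size of their intervals cannot be seen at this depth.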
